A study of Mus musculus with 2 samples.

Results

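The Mef2 family (myocyte enhancer factor 2) was examined in accessible chromatin of the mouse hippocampus. Its members were taken by name from the GENCODE M21 annotation: Mef2a, Mef2b, Mef2c and Mef2d, 4 of 21951 protein-coding genes. For each gene, the accessible sites at every annotated transcription start site (TSS) and in the gene with 50 kb on each side were collected from both libraries. These windows held 72 peaks in replicate 1 and 46 in replicate 2.

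MEF2 proteins are MADS-box transcription factors that bind a short AT-rich element as dimers. They recruit class IIa histone deacetylases and other repressors in resting cells, and calcium entry acts on them through calcineurin and through kinases, so that their targets respond to neuronal activity. In the brain the family is known for control of synapse number and neuronal survival, and Mef2c for its part in cortical and hippocampal development. In muscle, the same factors act with myogenic regulators on contractile genes.

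DNase-seq maps the places where DNase I can cut chromatin. It was applied to tissue that the labels call hippocampus in one field and a layer of it in another, from female B6CASTF1/J mice (an F1 hybrid of C57BL/6J and CAST/EiJ) aged 2 months. The labels give 1 group with no treatment named and 2 libraries called biological replicates 1 and 2. Both libraries carry the same donor record and nothing says that separate animals were used, so differences between the replicates may be technical only. There was no second condition, and no p-value was computed.

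Replicate 1 had 129779 peaks covering 24.5 Mb and replicate 2 had 71895 covering 14.6 Mb, so a site seen in replicate 1 alone can be a site that the thinner list of replicate 2 does not hold. Each peak has a signal value given by the authors, on a scale that no label or header states. Values are written below as replicate 1 and then replicate 2. Coordinates are on mm10, counted from 1. Because the tissue was assayed in bulk, a larger share of cells with an open site and a more open site in each cell cannot be told apart.

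All 4 Mef2 genes had a peak within 1 kb of at least 1 TSS in both libraries, against 60.2% of all protein-coding genes (13218 of 21951; 64.9% in replicate 1 and 61.5% in replicate 2). Of their 43 annotated TSSs, 21 had such a peak in both (48.8%, Wilson 95% interval 34.6 to 63.2), beside 49.9% of all 93526 TSSs of protein-coding genes. Many of these TSSs lie close together and share a peak. When TSSs within 1 kb of each other were merged, 6 of 19 clusters were accessible in both libraries, 1 in replicate 1 only and 12 in neither. Mef2a, Mef2c and Mef2d were thus accessible at some of their start sites and without a peak at others, whereas both clusters of Mef2b had one. Asked for a peak over the TSS base itself in both libraries, 2 genes (Mef2a and Mef2c) and 5 TSSs remained, since in at least 1 library the peaks of the other genes lay beside the start.

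**Figure D1:**
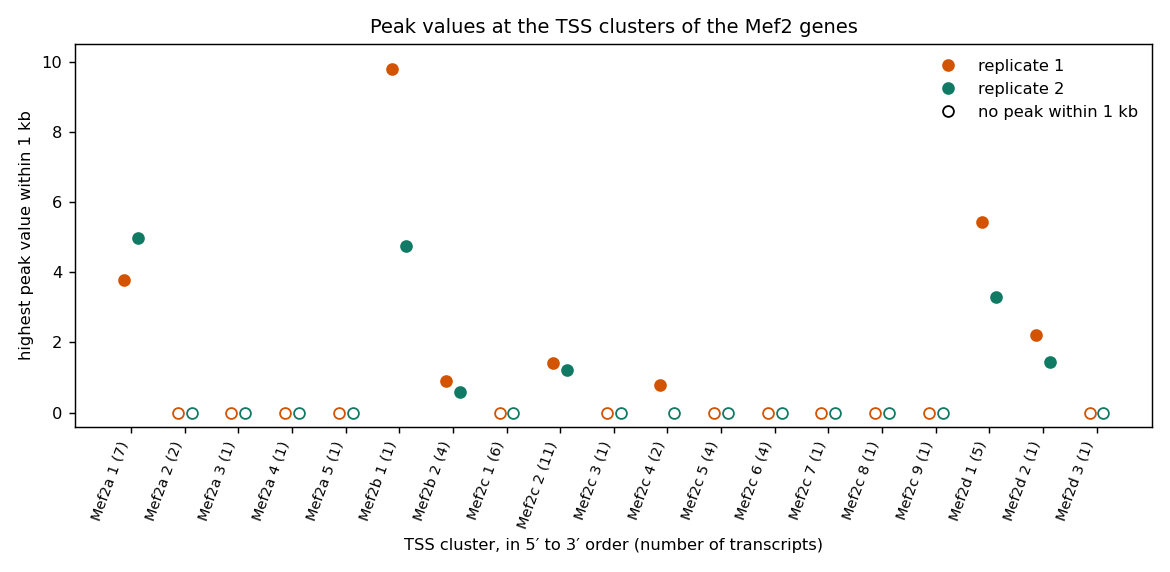
Highest peak value within 1 kb of each TSS cluster (y axis, the authors' signal value) for the 19 clusters of the Mef2 genes in transcript order (x axis, number of annotated transcripts in brackets), with 1 point per library and open points at 0 where no peak was called. The 6 clusters with filled points in both libraries include 1 of Mef2a, 2 of Mef2b, 1 of Mef2c and 2 of Mef2d.

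At the most accessible TSS of each gene, the peak value was 3.78 and 4.97 at Mef2a (mean 4.37 ± 0.847, SD, n = 2). At Mef2b it was 9.80 and 4.74 (7.27 ± 3.58), at Mef2c 1.41 and 1.23 (1.32 ± 0.126) and at Mef2d 5.44 and 3.29 (4.37 ± 1.52). Mef2c was the lowest of the 4 in both libraries on this measure. The Mef2b value, however, comes from a peak shared with 2 neighbouring genes, and at the start sites that Mef2b does not share it was 0.911 and 0.598, below Mef2c in both. By the strongest TSS peak, Mef2b was above Mef2d in both libraries, while Mef2a lay below both in replicate 1 and above both in replicate 2. The means of Mef2a, Mef2b and Mef2d did not differ beyond their spread. Among the 13218 genes with a TSS peak in both libraries, the Mef2c value exceeded that of 19.3% of genes in replicate 1 and 16.8% in replicate 2. The corresponding shares were 55.3% and 83.7% for Mef2a, 93.7% and 81.3% for Mef2b, and 71.5% and 59.5% for Mef2d.

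The DNA of these sites is printed because its composition and its protected bases differ between the genes. Each line gives the part of the strongest TSS peak that both libraries share, up to 250 bases around its middle, on the strand of the gene and 5′ to 3′. Capitals mark bases inside a footprint in both libraries, a footprint being a short run of bases within accessible DNA that the authors listed as protected from cutting. The lines cover chr7:67372801-67373000 (Mef2a, minus strand), chr8:70139166-70139415 (Mef2b), chr13:83524581-83524760 (Mef2c) and chr3:88142241-88142360 (Mef2d).
Mef2a TSS: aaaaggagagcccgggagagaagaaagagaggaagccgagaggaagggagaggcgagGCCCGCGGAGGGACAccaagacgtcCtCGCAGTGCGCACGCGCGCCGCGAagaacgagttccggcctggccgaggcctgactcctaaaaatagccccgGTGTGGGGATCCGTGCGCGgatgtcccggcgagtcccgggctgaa
Mef2b upstream TSS: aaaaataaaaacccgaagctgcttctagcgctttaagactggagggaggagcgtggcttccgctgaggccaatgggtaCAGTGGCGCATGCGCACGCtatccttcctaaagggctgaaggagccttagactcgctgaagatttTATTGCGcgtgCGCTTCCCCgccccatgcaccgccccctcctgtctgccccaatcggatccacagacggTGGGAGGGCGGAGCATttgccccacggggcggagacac
Mef2c second TSS cluster: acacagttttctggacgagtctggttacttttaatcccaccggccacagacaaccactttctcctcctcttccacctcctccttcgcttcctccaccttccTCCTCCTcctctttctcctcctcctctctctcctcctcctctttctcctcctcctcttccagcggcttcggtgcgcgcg
Mef2d TSS: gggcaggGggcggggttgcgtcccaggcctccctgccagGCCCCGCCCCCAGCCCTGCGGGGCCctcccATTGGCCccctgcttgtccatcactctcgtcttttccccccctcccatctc
Common footprints covered 58 of 200 bases of the Mef2a line, 51 of 250 of the Mef2b line, 33 of 120 of the Mef2d line and 7 of 180 of the Mef2c line. The Mef2c peak was also the weakest of these, and its region held 6 footprints in replicate 1 and 1 in replicate 2. The part of peak strength in these numbers was not tested. The stretch was 66.0% G and C at Mef2a, 59.6% at Mef2b, 56.7% at Mef2c and 73.3% at Mef2d, and that of Mef2c consisted largely of pyrimidine repeats.

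Mef2a (ENSMUSG00000030557.17) lies on the minus strand at chr7:67231163-67372858, spans 142 kb and has 12 transcripts from 7 TSSs. Its accessible cluster, at 67372827 to 67372858, is the start of 7 transcripts. The shared region there ran from 67372781 to 67373040 over an exon of the gene, and Mef2a was the only one of the 4 genes whose TSS value was higher in replicate 2. In replicate 1 a second peak of value 2.28 abutted it upstream (67373041-67373160), the strongest peak of any Mef2 window that replicate 2 lacked. Replicate 2 still had 1 footprint listed over that stretch, so only its peak call was missing. The other 5 TSSs form 4 clusters inside the gene, and none had a peak in either library. Not 1 base within 1 kb of them was listed by the authors at a false discovery rate (FDR) under 0.05, whereas 897 and 1696 bases were listed at the accessible cluster.

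Mef2b (ENSMUSG00000079033.10) lies at chr8:70139711-70167488 on the plus strand, spans 27.8 kb and has 5 transcripts from 3 TSSs. The strong peak of value 9.80 and 4.74 belongs to the upstream TSS, which starts 1 transcript. That peak lay 271 and 251 bp from the Mef2b TSS, over an exon of Rfxank, and within 1 kb of TSSs of Rfxank (a regulator of MHC class II genes) and Borcs8 (a subunit of a lysosome-positioning complex). It is therefore not a measure of Mef2b alone. The other 4 transcripts start at 70152778 and 70152781, where no other coding gene shares the site. There the region 70152621-70152815 had a value of 0.911 and 0.598 (0.755 ± 0.221), the lowest mean of the 7 TSS regions that both libraries shared. Its lowest FDR was 7.36e-05 in replicate 1 and 0.0313 in replicate 2, and it was absent from the shorter peak list of replicate 2. Footprints were listed there in replicate 1 (2) and not in replicate 2 (0). The part shared by both libraries, chr8:70152695-70152751 on the gene's strand, is shown because it is the only start site of the gene that no neighbour shares, and it holds no base protected in both.
Mef2b own TSS: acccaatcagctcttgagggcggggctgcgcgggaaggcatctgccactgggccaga
In these 57 bases the script found a CCAAT box (the NFY motif), the SP/KLF motif GGGCGG and the E-box CAGATG in reverse complement.

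Mef2c (ENSMUSG00000005583.16) lies at chr13:83504034-83667080 on the plus strand, spans 163 kb and has 31 transcripts from 27 TSSs, more than the other three genes together. The first cluster, 83504034 to 83504240 with 6 transcripts, had no peak in either library, and the nearest peaks lay 14061 and 13921 bp away. No base within 1 kb of it was listed at an FDR under 0.05. The second cluster, 83523473 to 83524920, holds 11 TSSs and 11 transcripts, and all 11 TSSs had a peak in both libraries. Its accessibility was low and broad. It consisted of a region of 740 bp (83524181-83524920), wider than 97.6% of shared TSS regions, whose median was 280.0 bp, and of a second region of 419 bp (83523601-83524019) with a value of 0.805 and 0.991. A further cluster at 83572348 and 83572381 had a peak of 0.778 in replicate 1 only. The remaining clusters had none, so 7 of the 9 Mef2c clusters had no peak in either library.

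The DNA at the closed first cluster differs from that of the accessible second cluster, and the RefSeq promoter there (GRCm38.p6, chr13:83503784-83504083, plus strand, 250 bases before to 50 after the start) is shown for that contrast, with CCAAT boxes in capitals.
Mef2c first promoter: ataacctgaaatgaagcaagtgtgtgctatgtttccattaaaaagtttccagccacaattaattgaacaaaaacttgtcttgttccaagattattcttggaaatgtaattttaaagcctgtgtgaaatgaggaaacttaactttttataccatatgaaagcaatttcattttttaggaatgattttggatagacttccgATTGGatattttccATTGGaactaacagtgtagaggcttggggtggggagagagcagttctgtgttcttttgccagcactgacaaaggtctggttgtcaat
This promoter was 35.7% G and C with a CpG ratio (observed over expected CpG) of 0.109. Over 1 kb around the TSSs the CpG ratio was 0.296 to 0.307 in the first cluster and 0.668 to 0.733 in the second. Among all TSSs of protein-coding genes split into 5 equal bins of this ratio, a peak in both libraries was found at 11.9% of TSSs in the second bin, which holds the first Mef2c cluster. It was found at 89.4% in the fourth bin, which holds the second cluster. These 2 clusters showed the state most common at their CpG ratio, but another Mef2c TSS did not: 83575210 has a ratio of 0.602, in the fourth bin, and no peak in either library. Of all 32851 RefSeq promoters of this length, 37.4% held a CCAAT box, so those at the closed promoter do not set it apart.

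Mef2d (ENSMUSG00000001419.17) lies at chr3:88142372-88172086 on the plus strand, spans 29.7 kb and has 7 transcripts from 6 TSSs. Its main cluster, 88142372 to 88142574 with 5 transcripts, lay at or beside the region 88142081-88142440, which ends before the last TSSs of the cluster. Overlapping footprints of the libraries were merged, and the widest span common to both at any Mef2 TSS, 37 bases, was found there. Lower-case bases inside that span in the Mef2d line lay outside a footprint in at least 1 library. The SP/KLF and NFY matches of the span lie in separate protected stretches. A further TSS at 88162960, the start of 1 processed transcript, had a peak 400 and 414 bp away (88162325-88162560, intron) with a value of 2.22 and 1.43 (1.83 ± 0.555). Its CpG ratio was 0.128, in the lowest bin, where 5.74% of TSSs had a peak in both libraries, so this accessible site was an uncommon one for its composition. The last TSS, at 88168252, had none. Mef2a and Mef2d resembled each other at their main start sites, both with a CpG ratio in the highest bin (0.878 to 0.887 and 0.842 to 0.878), where 95.5% of TSSs had a peak in both libraries.

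A region was called distal when it lay more than 1 kb from every TSS of a protein-coding gene. Of 59 distal regions in the 4 windows, 24 were shared by both libraries (40.7%, interval 29.1 to 53.4), beside 36.2% of all 108200 distal regions. Seen from replicate 1, 24 of 53 (45.3%) were found again, against 39.1% in the genome. Seen from replicate 2, 24 of 30 (80.0%) were, against 83.2%. These shares lie near the genome's. In the shorter, stricter peak lists of the authors 15 shared distal regions were left.

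The shared distal regions were unevenly spread: 1 at Mef2a, 7 at Mef2b, 7 at Mef2c and 9 at Mef2d. All 4 genes thus had at least 1, as did 77.8% of protein-coding genes, whose median number was 2. Per 100 kb of window this came to 0.414 at Mef2a, 5.48 at Mef2b, 2.66 at Mef2c and 6.94 at Mef2d. The density exceeded that of 22.7%, 96.3%, 70.8% and 98.9% of protein-coding genes, in that order. By this count Mef2d and Mef2b stood near the top of the genome and Mef2a in its lower part. The count takes in regions within 1 kb of noncoding RNA starts, as for several at Mef2d. It also takes in regions nearest to the TSS of another coding gene, as for most at Mef2b. The windows differ in what else they hold: Mef2b has 7 other coding genes in its window, Mef2a has Lysmd4, Mef2d has Iqgap3 and Mef2c has none. Inside the gene bodies themselves, 6 of the shared distal regions lay in Mef2c, 2 in Mef2d, 2 in Mef2b and 0 in Mef2a.

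**Figure D2:**
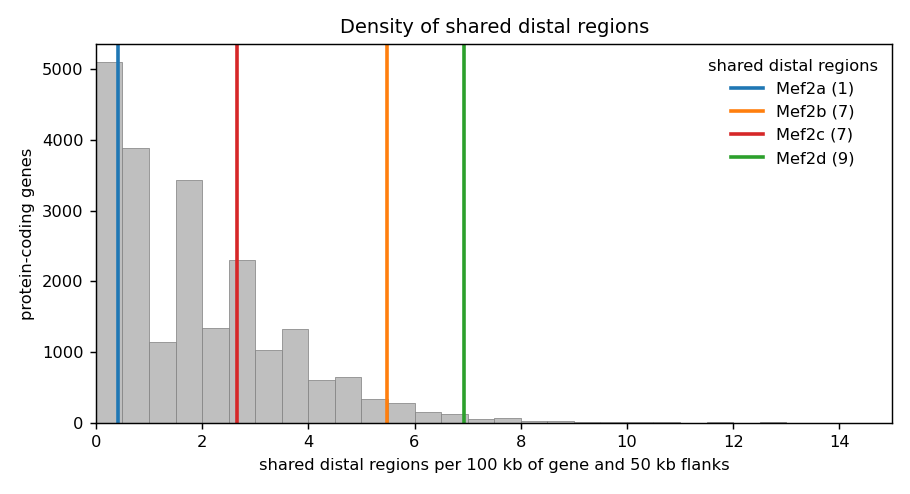
Number of protein-coding genes (y axis) by their shared distal regions per 100 kb of gene and 50 kb flanks (x axis, bins of 0.5, genes beyond 15 not drawn), with a vertical line for each Mef2 gene and its number of regions in the key. Mef2a lies at 0.414 in the tallest bin, Mef2d at 6.94 in the right tail.

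**Figure D3:**
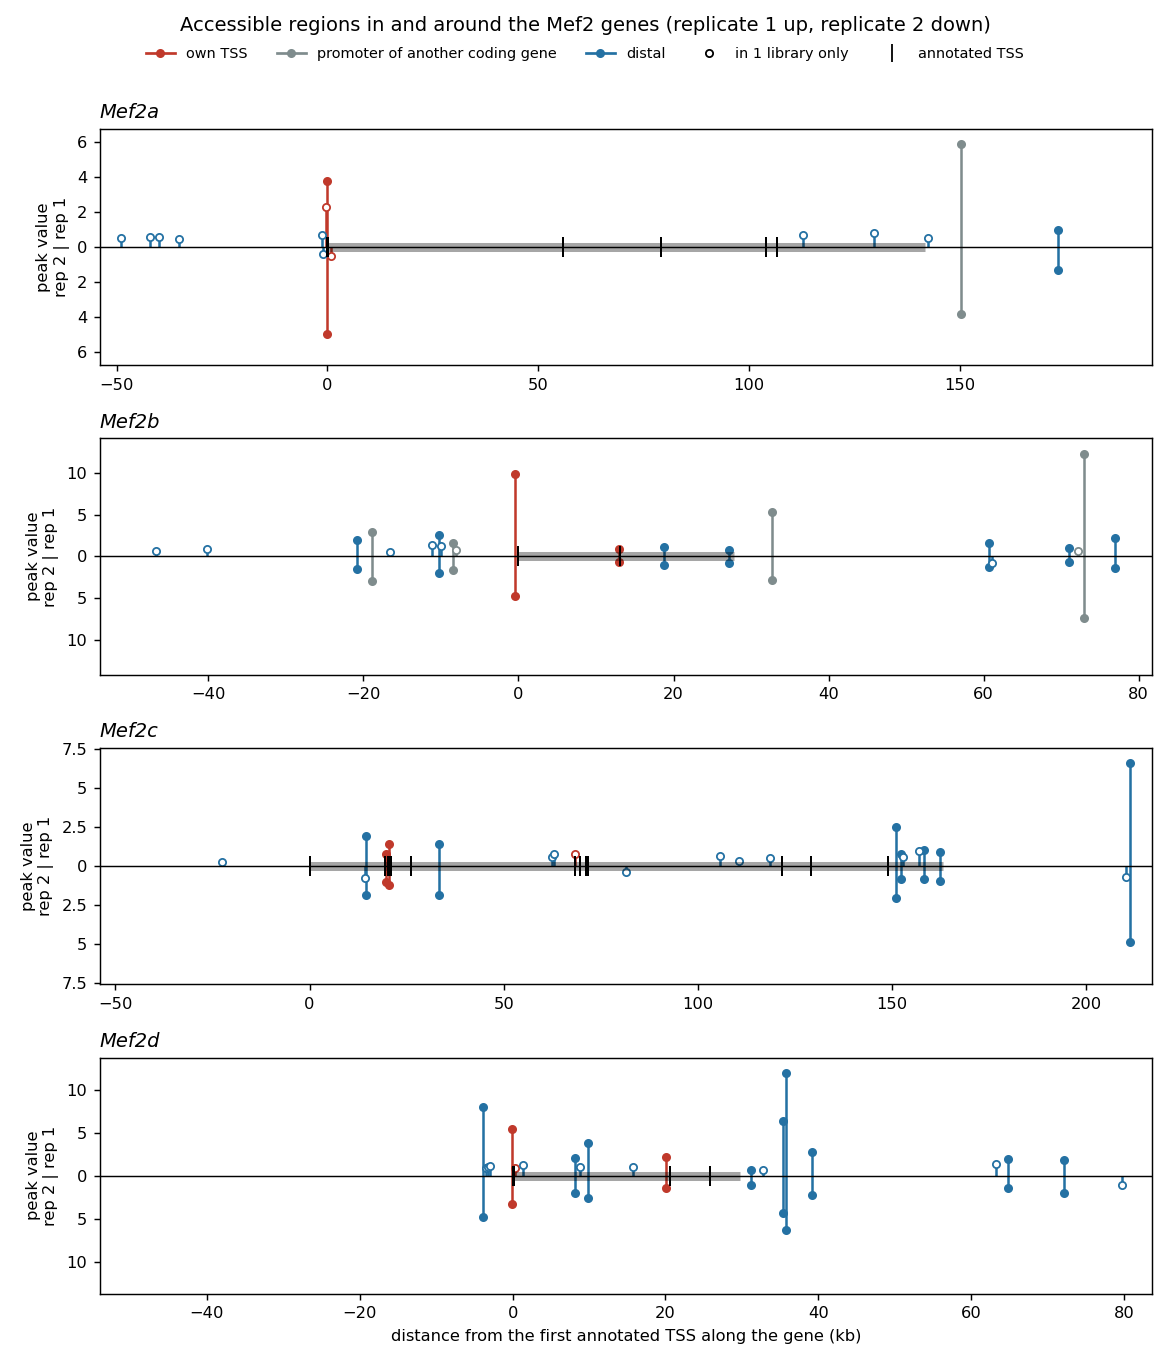
Peak values (y axis, replicate 1 upward and replicate 2 downward) of all regions in each Mef2 window by distance from the first TSS along the gene (x axis, kb). Grey bars are gene bodies and ticks TSSs; filled points are regions shared by both libraries. The strongest sites at Mef2c and Mef2d are distal ones at 211 and 35.8 kb, whereas at Mef2a and Mef2b no distal site exceeds the strongest TSS peak.

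At Mef2c and Mef2d the strongest accessible sites were not the promoters. Mef2c had 4 shared distal regions and Mef2d 3 with a higher value than the gene's own TSS peak in both libraries. Mef2a had 0, and so had Mef2b against its upstream TSS peak, though 6 of its 7 shared distal regions exceeded the weak peak at its own TSSs. In the genome, 20.8% of genes with a TSS peak in both libraries had at least 1 such region.

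The strongest site of Mef2c lay 48.0 kb beyond the gene's end, at chr13:83715061-83715280, in intergenic DNA, with a value of 6.59 and 4.90 (5.74 ± 1.19). That is above the Mef2c TSS peak by a factor of 4.69 in replicate 1 and 3.99 in replicate 2. The nearest coding TSS belongs to Mef2c, 62.2 kb away, and the nearest of another coding gene, Tmem161b, lies 507 kb away. The data do not tie the site to any gene. The next sites were both in introns: 83654981-83655160 with 2.51 and 2.04, and 83518301-83518640, which lies between the closed first and the open second TSS cluster, with 1.90 and 1.84. A further intronic region at 83537261-83537480 had 1.43 and 1.88. All 3 intronic regions exceeded the TSS peak in both libraries. With a TSS window of 2.5 kb in place of 1 kb, the late intron site fell near a Mef2c TSS and raised the gene's mean TSS value to 2.28. The number of Mef2c distal regions above the TSS peak then fell from 4 to 1, the downstream site, while that of Mef2d was still 3.

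The shared parts of 3 of these regions are printed on the plus strand because their common footprints differ in the searched motifs they match, with the protected bases in capitals. The lines cover chr13:83715061-83715280, chr13:83654981-83655160 and chr13:83537281-83537460.
Mef2c downstream site: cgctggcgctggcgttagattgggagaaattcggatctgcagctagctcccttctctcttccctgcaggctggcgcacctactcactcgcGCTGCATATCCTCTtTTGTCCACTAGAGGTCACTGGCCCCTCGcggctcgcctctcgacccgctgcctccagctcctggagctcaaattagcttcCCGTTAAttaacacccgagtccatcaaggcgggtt
Mef2c late intron site: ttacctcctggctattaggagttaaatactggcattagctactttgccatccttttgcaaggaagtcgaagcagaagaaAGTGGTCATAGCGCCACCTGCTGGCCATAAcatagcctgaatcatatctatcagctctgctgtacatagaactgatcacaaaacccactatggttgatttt
Mef2c early intron site: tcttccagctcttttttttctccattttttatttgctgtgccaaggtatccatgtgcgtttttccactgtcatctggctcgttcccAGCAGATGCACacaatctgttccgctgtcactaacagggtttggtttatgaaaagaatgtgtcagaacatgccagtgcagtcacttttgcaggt
At the downstream site the merged footprints had a common span of 43 bases, the widest among all 53 common footprints of the family. A lower-case base inside the span lay outside a footprint in at least 1 library, so it is not an unbroken protected run. None of the searched motifs matched in the span. In the late intron site the 30 protected bases matched the consensus of CTCF, the insulator and loop-anchoring factor. In the early intron site the 11 protected bases contained CAGATG, the E-box bound by Neurod-type factors of neurons. A second match to this E-box in a common footprint lay near the end of the gene, at 83666376-83666385, in a weak exonic region with 0.893 and 0.970.

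Around Mef2d, the strongest region was chr3:88177981-88178280 with a value of 11.9 and 6.28 (9.11 ± 4.00), higher than that of 99.8% and 99.0% of all peaks of each library. It lay 5.90 kb beyond the gene's end, and an adjoining region at 88177661-88177940 had 6.36 and 4.33. Both lie within 1 kb of the TSS of 1700113A16Rik, an antisense RNA gene, so they are distal only with respect to coding genes. The other strong site, chr3:88138341-88138560, lay upstream, at -3.92 kb from the first Mef2d TSS, in intergenic DNA and had 7.99 and 4.76 (6.37 ± 2.28). It exceeded the Mef2d TSS peak in both libraries. The shared parts of the upstream site (chr3:88138361-88138560) and of the strongest site (chr3:88178026-88178275) are given on the plus strand.
Mef2d upstream site: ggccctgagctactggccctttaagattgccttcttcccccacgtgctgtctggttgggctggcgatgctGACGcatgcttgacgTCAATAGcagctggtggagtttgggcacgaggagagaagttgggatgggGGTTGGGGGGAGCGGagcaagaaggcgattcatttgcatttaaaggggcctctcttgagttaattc
Mef2d downstream site: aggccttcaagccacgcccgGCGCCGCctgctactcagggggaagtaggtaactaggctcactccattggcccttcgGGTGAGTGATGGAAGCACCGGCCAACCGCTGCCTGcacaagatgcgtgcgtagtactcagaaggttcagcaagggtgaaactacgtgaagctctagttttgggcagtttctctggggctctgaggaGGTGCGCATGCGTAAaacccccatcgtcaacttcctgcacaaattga
The upstream site contains TGACGTCA, the cyclic AMP response element (CRE) bound by CREB, a factor that calcium and cyclic AMP signals activate. The last 3 bases of the element lay within a footprint of both libraries. A second CRE match lay in a region at 88214341-88214555 (1.78 and 1.95) near noncoding RNA genes, outside any common footprint. Thus 2 of the 24 shared distal regions of the family held this motif in the 200 bp around their middle, both at Mef2d. Of all 39196 shared distal regions 0.385% did, and of shared regions within 1 kb of a coding TSS 2.52%. In the same 24 regions the E-box and NFY motifs were each in 6 (31.5% and 24.7% of all shared distal regions). SP/KLF was in 5 (8.99%), CTCF in 2 (8.97%), and the AP-1 and EGR motifs each in 1 (10.2% and 0.691%). The other searched motifs were in 0. These shares were not tested.

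The distal sites at Mef2b and Mef2a were weaker. At Mef2b the leading ones were 70129361-70129640 (intergenic) with 2.52 and 1.96, 70118769-70118980 (intron of Ncan) with 1.95 and 1.45, and 70216561-70216840 (intergenic) with 2.23 and 1.35. Of the 4 shared promoters of neighbours in that window, those of Ncan, Tmem161a and Slc25a42 were stronger than these sites in both libraries. So was the upstream TSS peak of Mef2b. The promoter of Nr2c2ap, with 1.65 and 1.65, was below the first of these sites in both. The highest promoter, at Slc25a42, a mitochondrial carrier gene, had 12.2 and 7.30. The single shared distal region of Mef2a, chr7:67199510-67199720, lay beyond the gene's end with 0.937 and 1.31 (1.12 ± 0.264). The shared parts chr8:70129382-70129600 and chr7:67199541-67199700 are given on the plus strand.
Mef2b upstream site: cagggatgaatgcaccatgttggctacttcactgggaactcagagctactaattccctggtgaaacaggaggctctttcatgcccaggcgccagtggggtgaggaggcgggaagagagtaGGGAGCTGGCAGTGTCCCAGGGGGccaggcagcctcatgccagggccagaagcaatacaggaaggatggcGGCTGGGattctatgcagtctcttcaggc
Mef2a downstream site: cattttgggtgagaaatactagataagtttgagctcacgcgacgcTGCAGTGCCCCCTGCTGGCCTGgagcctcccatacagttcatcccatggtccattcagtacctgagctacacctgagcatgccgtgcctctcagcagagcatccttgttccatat
The 22 protected bases of the Mef2a site matched the CTCF consensus in reverse complement. The Mef2b site had 31 protected bases and no match to the searched motifs within its footprints.

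Of the 77 regions in the 4 windows, 36 were shared (46.8%, beside 42% of all regions), 34 were in replicate 1 only and 7 in replicate 2 only. The regions of 1 library had lower values, as a set, than the shared ones. Those of replicate 1 only had a median value of 0.734 and reached 2.28, against a median of 2.02 in replicate 1 for the shared ones. Over all peaks of replicate 1 the median was 0.699. Those of replicate 2 only did not exceed 1.14. The strongest unshared distal regions were 88205561-88205800 near Mef2d with 1.36 and 70128510-70128720 near Mef2b with 1.35 in replicate 1. In replicate 2 they were 88222060-88222126 near Mef2d with 1.14 and 70200820-70200880 near Mef2b with 0.743.

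In the shared regions of the family, the ratio of replicate 1 to replicate 2 had a median of 1.26 and ran from 0.599 to 2.07. All 58484 shared regions of the genome had a median of 1.18, with the middle 90% from 0.643 to 2.19. Replicate 2 was the higher one in 8 of the 36 regions, beside 32.7% of all shared regions. Of the TSS peaks, Mef2b had the highest ratio, 2.07, and Mef2a the lowest, 0.759. The ratios of the Mef2 regions lay within or just outside the middle 90% of the genome.

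**Figure D4:**
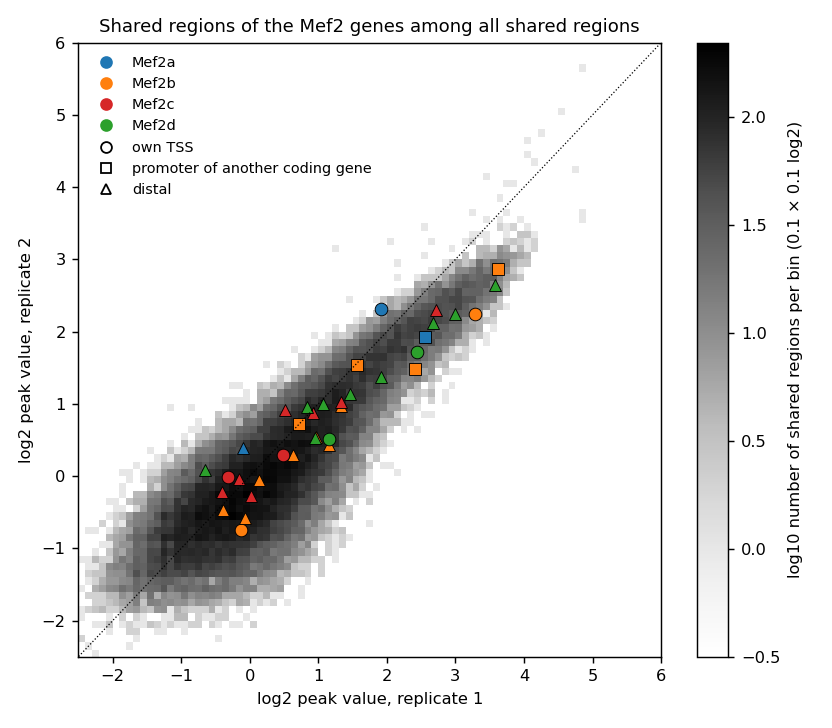
Peak value on a log2 scale in replicate 1 (x axis) and replicate 2 (y axis) for the 36 shared regions of the Mef2 genes (coloured points, shape by kind of region) over all 58484 shared regions (grey, log10 number per bin); the dotted line marks equal values. The Mef2a TSS lies above the line and the Mef2b upstream TSS, with a ratio of 2.07, below it.

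The windows held 23 footprints in replicate 1 and 12 in replicate 2 at Mef2a, 43 and 37 at Mef2b, 46 and 15 at Mef2c, and 50 and 23 at Mef2d. Of these, 8, 19, 11 and 15 overlapped between libraries, 53 in all. They made up 32.9% of the family's footprints in replicate 1, against 24.9% in the genome, and 65.4% of those in replicate 2, against 49.5%. Of the 24 shared distal regions, 23 held a footprint in each library (95.8%, against 71.4% of all shared distal regions), and in 19 the footprints overlapped (79.2%, against 52.2%). The shared distal regions of the family also had higher peak values, with a median of 1.91 and 1.65 against 1.08 and 0.846 in the genome. The part of peak strength in these shares was not tested.

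Motifs were searched in the common footprints. Among the 53, widened by 5 bases on each side and searched on both strands, 11 held GGGCGG (SP/KLF), 6 the NRF1 consensus, 5 CCAAT (NFY), 2 the CTCF consensus, 2 TGACGTCA and 2 CAGATG. The shares in all 55804 common footprints were 13.7%, 2.68%, 5.03%, 5.53%, 0.991% and 6.22%. The 6 NRF1 matches were at TSS regions of Mef2a and Mef2b and of neighbours of Mef2b, including 3 in the peak that Mef2b shares with Rfxank and Borcs8. Common footprints at Mef2c and Mef2d held 0 matches to this consensus. Both CTCF matches were in distal regions. The 2 CRE matches are neighbouring footprints at the same site, so they count 1 element. A match describes the letters and does not show that the factor was bound.

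MEF2 factors are known to act on Mef2 genes themselves, so the family's own AT-rich consensus was searched. It matched 81 times in the Mef2a window, 11 times at Mef2b, 108 times at Mef2c and 21 times at Mef2d. Of these matches, 3 lay in an accessible region and 1 in a region shared by both libraries. Accessible regions make up little of these windows, 0.947% of bases at Mef2a, 3.91% at Mef2b, 1.87% at Mef2c and 3.05% at Mef2d, so few matches would fall in them by area alone. The shared match, at 67372851-67372860 on chromosome 7, covers the first Mef2a TSS itself. In the Mef2a line above it lies in lower case, shortly before the last protected stretch. It lay in no footprint of either library, and none of the 53 common footprints held the consensus, which is found in 0.0627% of all common footprints. The other matches in accessible DNA were in regions of replicate 1 only, near Mef2b (value 1.35) and in an intron of Mef2c (0.769). Of the 24 shared distal regions 0 held it in the 200 bp around their middle, where 2.27% of all shared distal regions did.

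The genes that act with MEF2 were described from a list of 32. A TSS peak in both libraries was found at 24 of them, 24 in replicate 1 and 25 in replicate 2. The mean value of those with a peak in both had a median of 4.60, beside 3.10 over all protein-coding genes. Of the 14 listed genes other than targets, Srf among them, 13 were accessible at a TSS in both libraries, beside 60.2% of all protein-coding genes. Of the repressors, 4 of 5 were: Hdac4, a class IIa deacetylase, had 13.2 and 8.04 (10.6 ± 3.64) and Cabin1, which also binds calcineurin, 7.82 and 5.40 (6.61 ± 1.71). Hdac7 had a peak of 0.970 in replicate 2 only. The coactivator Ep300 had 6.38 and 3.96.

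Calcineurin subunits had a TSS peak at 4 of 4 genes, led by the catalytic Ppp3ca with 11.1 and 9.01 and the regulatory Ppp3r1 with 6.89 and 4.56. All 3 kinases had one, led by Mapk14 (p38 alpha) with 11.1 and 7.73 and Mapk7 (ERK5) with 5.30 and 3.39. Srf, the other MADS-box activator of immediate early genes, had 10.3 and 5.0. The values of Ppp3ca, Ppp3r1, Mapk14, Mapk7 and Srf exceeded that of the Mef2c TSS in both libraries. Camk4, the remaining kinase, had 0.672 and 0.980, below the Mef2c TSS in both, and the deacetylase Hdac9 had 2.63 and 1.07, below it in replicate 2; these 2 were named after their values were seen.

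The neuronal and the muscle targets of the list differed in these counts. All 10 neuronal targets had a TSS peak in both libraries, the highest being Pcdh10, a protocadherin of synapse elimination, with 8.41 and 5.36, and Ube3a, a ubiquitin ligase of synapses, with 7.13 and 6.51. Of 8 muscle targets, 1 had: Myog, Mb, Smyd1, Hrc, Xirp1, Xirp2 and Srpk3 had no TSS peak in either library. The exception, Ckm (muscle creatine kinase), had 0.752 and 1.69, but only at an upstream annotated start that lies within 1 kb of a TSS of Klc3, a kinesin light chain gene. At its other 2 TSSs there was none. These counts stand beside the 60.2% of all coding genes and were not tested. The list was chosen with earlier results of these data known.

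**Figure D5:**
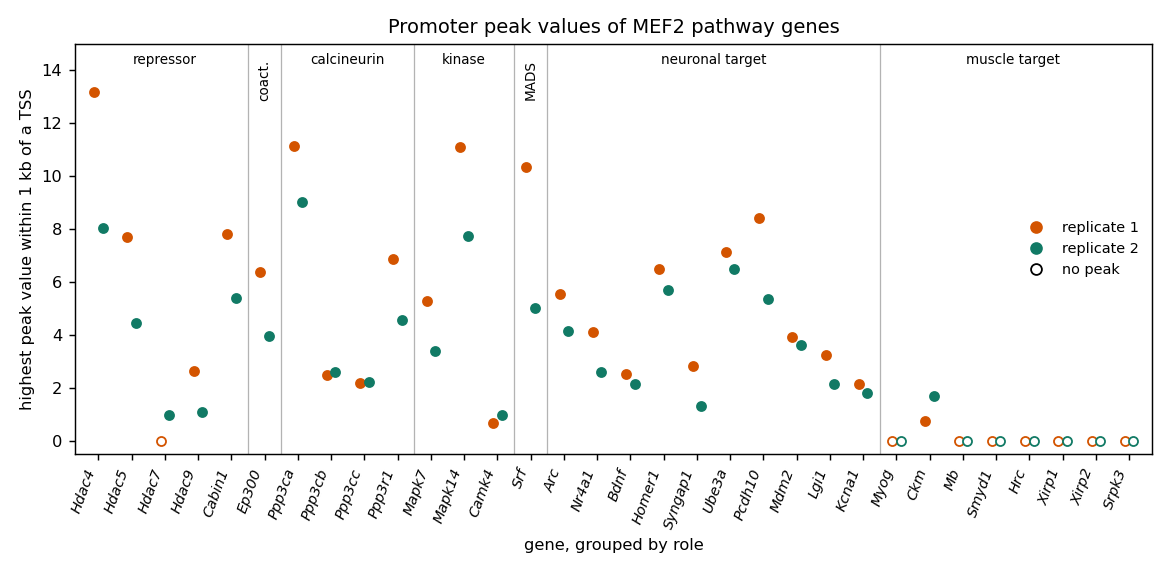
Highest peak value within 1 kb of a TSS (y axis, the authors' signal value) for the 32 MEF2 pathway genes, grouped by role (x axis), with 1 point per library and open points at 0 for no peak. All 10 neuronal targets have a peak in both libraries, and 7 of the 8 muscle targets have none.

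As a check of the labelled tissue, TSS peaks in both libraries were found at 5 of 5 general neuron markers, 3 of 3 of dentate granule cells and 3 of 3 of CA pyramidal cells, but at 1 of 3 interneuron markers. The count was 3 of 5 for astrocytes (5 in replicate 1), 1 of 5 for oligodendrocytes (4 in replicate 1), 0 of 5 for microglia (3 in replicate 1) and 1 of 5 for endothelial cells (2 in replicate 1). For skeletal muscle it was 1 of 4 (2 in replicate 1), the gene being Ckm. Of all protein-coding genes 60.2% had such a peak, and these small counts were not tested against it. Mef2a and Mef2c are also expressed in microglia and vessels, and the part of these cells in the Mef2 values was not tested.

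Taking the TSS value of each library and the number of shared distal regions together on a log2 scale, the protein-coding genes most like each member were, over 2 libraries, Cby1 and Fam227a for Mef2a (distance 0.134 for both, which share values), Hs2st1 and Rfx2 for Mef2b (0.127 and 0.157), Cfap43 and Rims1 for Mef2c (0.0183 and 0.0860), and Nf1 and Armh3 for Mef2d (0.0305 and 0.0334).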

How the data were processed

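DNase-seq of 2 libraries was analysed from files deposited by the authors on mm10, per the labels. The authors called peaks in each library separately and deposited a longer and a shorter list with a signal value per peak. The aligner, the callers and the scale were not given in the sources used here. Below 1 the values rose in steps (0.00884 in replicate 1, 0.0103 in replicate 2; 100% whole within 0.05 steps), which stands for 113 and 96.9 M tags if the scale is per M tags, so depth is known only under that reading. Base lists deposited by the authors give an FDR (a q-value) for bases under 0.05. Footprints deposited by the authors all carry 0.01, taken as a p-value or FDR threshold.

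Peaks of both libraries were merged where they shared 1 bp or more, and a region took its highest peak per library. TSSs were the starts of all annotated transcripts of protein-coding genes in GENCODE M21. Shares carry 95% Wilson intervals, which cover counting error only and treat neighbouring sites as independent. The CpG ratio was taken over 1 kb around each TSS, and motifs in the 200 bp around region middles. Sequences came from the GRCm38.p6 assembly and its RefSeq promoters; all 4 genes matched.

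The members and lists were chosen with earlier results of these data known. All members with every TSS were named; for each, the 3 shared distal regions of highest mean rank; per library the 2 strongest unshared distal regions; and per group of the pathway list the 2 genes of highest mean value and all without a peak in both. Sequences were those of the strongest TSS peak and strongest shared distal region of each gene. The Mef2b own TSS, the first Mef2c promoter, both Mef2c intron sites, the Mef2d upstream site, Camk4, Hdac9 and regions named with a motif were chosen after their values were seen.

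Alternatives were the shorter lists, other TSS windows and flanks, equal numbers of peaks, a 50% reciprocal overlap and each replicate left out. Merging was tested on simulated data. Python 3.11.15, NumPy 2.4.6, pandas 2.3.3, SciPy 1.17.1 and Matplotlib 3.10.9 were used.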

Additional observations from a re-analysis of the deposited data

How the results depend on the processing

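With a peak required over the TSS base, the count of Mef2 genes fell from 4 to 2 and that of TSSs from 21 to 5; both stayed within 1.5 times under the other settings. The 24 shared distal regions became 15 with the shorter peak lists, 15 with a flank of 10 kb and 10 with no flank, and 22 to 24 with reciprocal overlap or equal peak numbers. The 53 common footprints became 15 with no flank. Taking 1 library alone gave 4 genes, 21 to 23 TSSs, 30 to 53 distal regions, 81 to 161 footprints and 24 to 25 pathway genes. The Mef2c TSS value rose from 1.32 to 2.28 with a window of 2.5 kb; the other 3 genes' values stayed within the spread between replicates. By gene, the shared distal regions (1, 7, 7 and 9 for Mef2a to Mef2d) became 1, 4, 4 and 6 with the shorter lists and 1, 4, 6 and 9 beyond 2.5 kb. With no flank they were 0, 2, 6 and 2, which puts Mef2c above Mef2d. A 2.5 kb TSS window, tried for this after seeing the data, took the Mef2c distal regions above its TSS peak from 4 to 1. No paired analysis was possible because there was only 1 group. The thinner list of replicate 2 limits what can be called shared, and with 2 libraries no value has more than 1 difference behind its SD.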
